A study of Mus musculus with 8 samples.

Results

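The 9 genes described here encode the receptors by which macrophages and monocytes read chemokines and other chemoattractants. They are the chemokine receptors Cx3cr1, Ccr1, Ccr2 and Cxcr4, the atypical chemokine receptor Ccrl2, the complement peptide receptors C5ar1 and C3ar1, and the formyl peptide receptors Fpr1 and Fpr2. They were chosen by name from the 41388 genes of the deposited tables, and all 9 passed the filter on low counts that left 13933 genes to test. The RNA came from macrophages of epididymal white adipose tissue, a visceral fat depot, of 4 male MitoFat mice fed normal chow. MitoFat mice report the mitochondria of adipocytes, so that a macrophage that holds mitochondria from a fat cell carries the reporter signal. From each mouse the stromal vascular cells were freed with collagenase and sorted as live CD45+ F4/80+ CD64+ cells, once with the reporter signal (mtD2+) and once without it (mtD2-). There were 4 mtD2+ and 4 mtD2- libraries, which form 4 pairs, and both groups share the strain, the sex, the diet and the sort. The sources used here give neither the age of the mice, nor the element that drives the reporter, nor how many cells were sorted.

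Chemokines are small secreted proteins, and their receptors span the membrane several times and couple to inhibitory G proteins. A bound receptor turns the cell up the gradient of its ligand, and it is then silenced by receptor kinases, arrestins and RGS proteins. Ccr2 brings monocytes out of the bone marrow and into inflamed tissue, fat included, while Cx3cr1 is held by many resident macrophages and by patrolling monocytes. C5ar1 and C3ar1 bind the peptides split from complement proteins C5 and C3. Fpr1 and Fpr2 bind peptides that start with formyl methionine, which bacteria and mitochondria use to begin their proteins.

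Messenger RNA of 2 of the 9 receptors, Cx3cr1 and Ccr2, was lower in mtD2+ macrophages, and that of 1, Ccrl2, was higher. The other 6 did not pass the test. Counts were tested with edgeR's quasi-likelihood test with the mouse as a block, and the threshold for a call was a p under 0.05 after Benjamini-Hochberg adjustment over all tested genes. Over all 13933 tested genes this test called 3.72% higher and 1.78% lower in mtD2+ macrophages. The median log2 fold change, given throughout as mtD2+ over mtD2-, was 0.08 over the 9 receptors and -0.00 over all tested genes. Of the 9 receptors, 3 (Ccr1, Ccrl2 and C3ar1) were higher in mtD2+ in 4 of 4 mice, and 4 (Cx3cr1, Ccr2, Fpr1 and Fpr2) were lower in 4 of 4. Of all tested genes, 16.3% were higher in 4 of 4 mice and 16% were lower in 4 of 4. The mtD2+ and mtD2- libraries did not overlap for 3 receptors (Cx3cr1, Ccr2 and Fpr2), all lower in mtD2+, and for none in the other direction. Over all tested genes, 6.01% did not overlap with mtD2+ lower and 6.55% with mtD2+ higher. In bulk RNA from sorted cells, fewer cells of a type and less RNA per cell cannot be told apart, which holds for each difference below.

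The libraries held 18462287 to 27464399 counts in mtD2+ and 22379544 to 25285299 counts in mtD2-, and the libraries of a group differed by more than sampling noise (chi-square per degree of freedom 35.2 to 155.4). On the sort itself, Ptprc, which encodes CD45, had a log2 fold change of 0.02 (SE 0.11, edgeR adjusted p = 0.938). Adgre1, which encodes F4/80, was lower in mtD2+ by the same test (log2 -0.55, SE 0.12, adjusted p = 0.0336), a call lost without the block or without mouse 1, 3 or 4. Fcgr1, which encodes CD64, had -0.44 (SE 0.11, edgeR adjusted p = 0.0554), and passed with library totals (0.0437), the stricter filter (0.0390), DESeq2 (0.00963) and limma voom (0.0354). Of 10 macrophage markers, 1 was higher and 2 lower in mtD2+, and none was at 0. The log2 fold change was positive for 2 of the 10, with a median of -0.27. Their summed level was 14092 to 18154 CPM in mtD2+ and 17749 to 21939 CPM in mtD2-, where CPM is the gene's count per 1000000 counts of the library after scaling by the TMM factors of the test. These marker calls were lost without the block or without mouse 1, 3 or 4, and that of the 1 higher gene, Mertk, also without mouse 2 and with library totals. DESeq2 and limma voom each called 1 macrophage marker higher and 4 lower, and library totals gave 0 higher and 4 lower. The mtD2- library of mouse 4 stood apart from the other mtD2- libraries. Its chi-square was 120.2 to 155.4 per degree of freedom against each of them, where they had 40.2 to 42.5 among themselves.

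**Figure D1:**
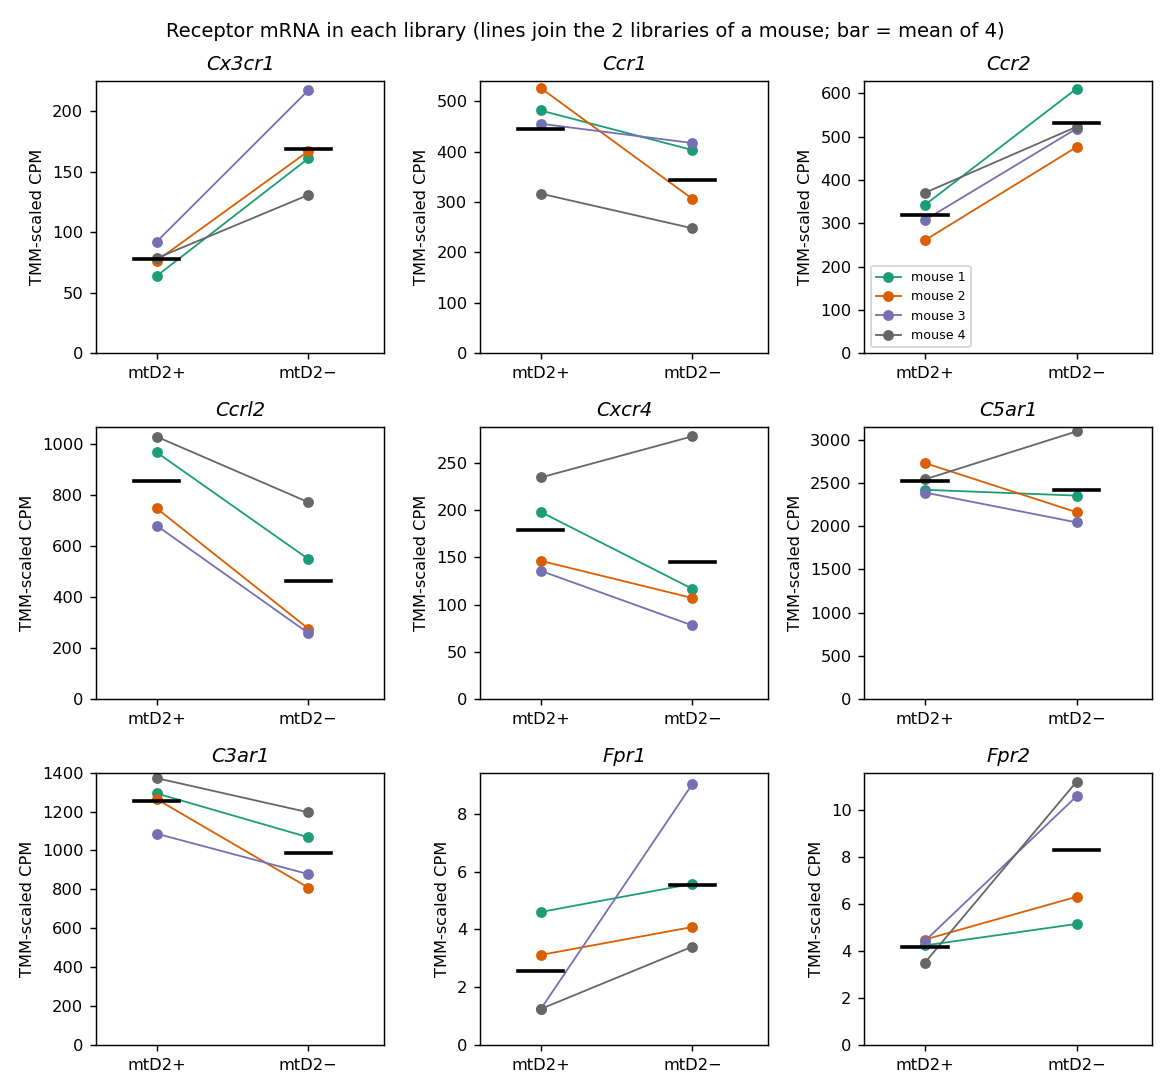
TMM-scaled CPM (vertical axes from 0) of the 9 receptors in each of the 8 libraries, mtD2+ on the left and mtD2- on the right of each panel, with a line joining the libraries of a mouse and a bar at the mean of 4. All 4 lines climb towards mtD2- for Cx3cr1 and Ccr2 and descend for Ccrl2, while for Cxcr4 and C5ar1 the line of mouse 4 climbs and the other 3 descend.

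Levels of different receptors were compared per transcript length, as the RPKM that the authors deposited. C5ar1 led in both populations, with 960.4 ± 55.8 RPKM in mtD2+ and 949.5 ± 113.7 RPKM in mtD2- (SD, n = 4 each), which was 48.8% of the summed RPKM of the 9 receptors in mtD2+ and 54.4% in mtD2-. In mtD2+ macrophages Ccrl2 was next at 396.5 ± 72.5 RPKM, then C3ar1 at 284.9 ± 23.3, Ccr1 at 154.2 ± 32.7, Cxcr4 at 96.5 ± 23.4, Ccr2 at 49.0 ± 6.72 and Cx3cr1 at 20.4 ± 3.21 RPKM. Fpr2 at 3.15 ± 0.385 and Fpr1 at 1.89 ± 1.21 RPKM stood last. Among these neighbours only the ranges of Ccr1 and Cxcr4, and of Fpr2 and Fpr1, overlapped. In mtD2- macrophages C3ar1 followed C5ar1 at 232.2 ± 27.4 RPKM, then came Ccrl2 at 218.7 ± 100.4, Ccr1 at 124.9 ± 34.2, Ccr2 at 84.9 ± 9.94, Cxcr4 at 79.3 ± 42.5, Cx3cr1 at 46.5 ± 12.2, Fpr2 at 6.49 ± 2.19 and Fpr1 at 4.32 ± 2.12 RPKM. There the ranges of all neighbours from C3ar1 down to Cx3cr1 overlapped, as did those of Fpr2 and Fpr1. Within a library Ccr1 exceeded Ccr2 in 4 of 4 mtD2- libraries, while for each other pair of neighbours with overlapping ranges the order held in 2 or 3 of 4 libraries, in both populations.

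**Figure D2:**
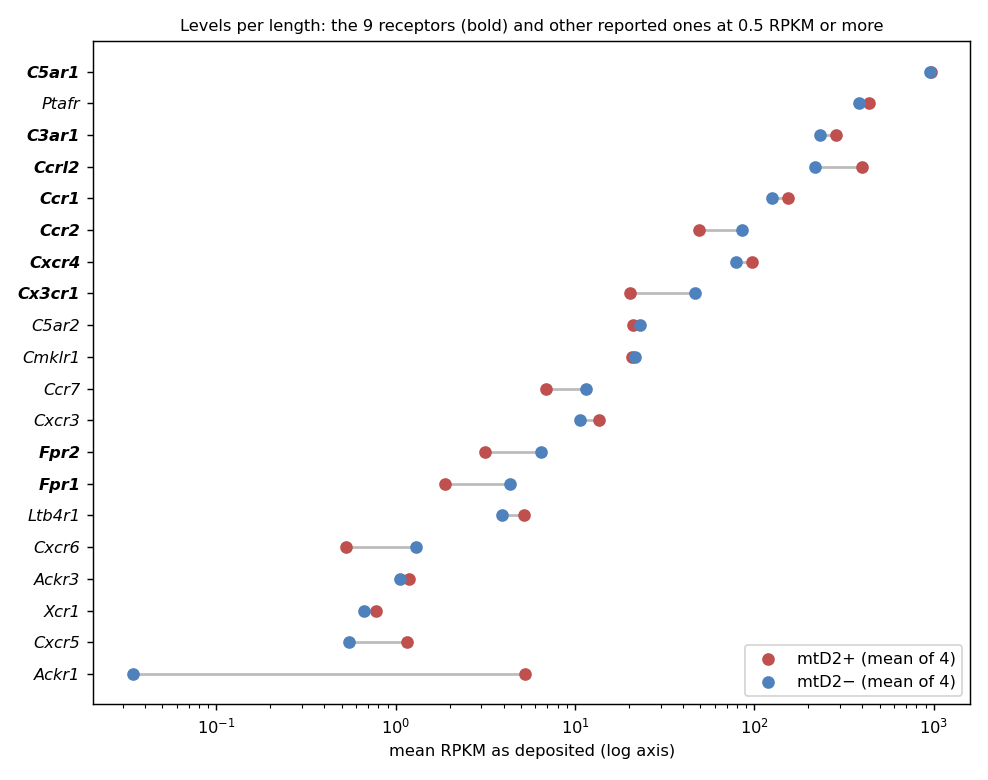
Mean deposited RPKM over 4 libraries (log axis) of the 9 receptors, in bold, and of other reported chemokine and chemoattractant receptors measured at 0.5 RPKM or more, with mtD2+ and mtD2- as separate points. C5ar1 stands at the top at 960.4 RPKM in mtD2+ and 949.5 RPKM in mtD2-, and Fpr1 and Fpr2 stand more than 2 orders of magnitude below it.

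Cx3cr1, the receptor for the membrane-bound chemokine fractalkine, was lower in mtD2+ macrophages in all 4 mice and under every alternative tried. The gene (ENSMUSG00000052336) lies on the minus strand of chromosome 9 from 119901616 to 120068283 in GRCm38, the build of all coordinates here. Its level was 63.9, 76.4, 92.2 and 78.6 CPM in the mtD2+ libraries of mice 1 to 4, against 161.1, 167.1, 217.4 and 130.9 CPM in their mtD2- libraries. Every mtD2+ library lay below every mtD2- library, and the lowest mtD2- value was that of mouse 4. The means were 77.8 ± 11.6 CPM in mtD2+ and 169.1 ± 35.9 CPM in mtD2- (SD, n = 4 each). The fitted log2 fold change was -1.11, or 2.16-fold lower in mtD2+ (SE 0.13, edgeR adjusted p = 0.00323). Within mice the log2 ratio was -1.33, -1.13, -1.24 and -0.74, smallest in mouse 4. The call was kept in 11 of 11 alternative settings, with fold changes of -1.23 to -1.03 as each mouse was left out.

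Ccr2, the receptor for Ccl2, Ccl7 and Ccl12, lies on the plus strand of the same chromosome (ENSMUSG00000049103, 124101950 to 124113557). It stood at 342.4, 261 and 307.6 CPM in the mtD2+ libraries of mice 1, 2 and 3 and at 370.4 CPM in that of mouse 4, against 610.9, 476, 518.7 and 522.9 CPM in the mtD2- libraries of mice 1 to 4. The groups did not overlap. Ccr2 averaged 320.3 ± 47.2 CPM in mtD2+ and 532.1 ± 56.6 CPM in mtD2- (SD, n = 4 each), and the fitted difference was 1.67-fold lower in mtD2+ (log2 -0.74, SE 0.11, edgeR adjusted p = 0.00813). The log2 ratio was -0.84, -0.87, -0.75 and -0.50 in mice 1 to 4, so that mouse 4 again showed the smallest difference. The adjusted p was 0.0590 without mouse 1 and 0.0615 without mouse 3, at fold changes of -0.71 and -0.73.

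Ccr1, a receptor for Ccl3, Ccl5, Ccl6 and Ccl9 in the mouse, lies on the minus strand of chromosome 9 (123962126 to 123968692), 133.3 kb from Ccr2. It had 481.7, 526.2, 455.4 and 316.7 CPM in the mtD2+ libraries of mice 1 to 4, against 403.2, 306.3, 417.1 and 248 CPM in the mtD2- libraries. Within each mouse the mtD2+ library was the higher one, yet the groups overlapped, and both libraries of mouse 4 were the lowest of their group. The log2 fold change was 0.38 (SE 0.13, edgeR adjusted p = 0.120), which did not pass the test.

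Ratios of RPKM within a library do not depend on how libraries are scaled to each other. The ratio of Ccr2 to Ccr1 was 0.315, 0.220, 0.299 and 0.518 in the mtD2+ libraries of mice 1 to 4, against 0.671, 0.688, 0.551 and 0.934 in the mtD2- libraries, without overlap. The ratio of Cx3cr1 to Ccr1 was 0.100 to 0.188 in mtD2+ and 0.302 to 0.413 in mtD2-, also without overlap. The ratio of Ccr2 to Cx3cr1 was 1.95 to 3.14 in mtD2+ and 1.40 to 2.34 in mtD2-, and these ranges overlapped, although the mtD2+ library had the higher ratio in 4 of 4 mice. The ratios of both genes to Ccr1 were lower in mtD2+ in 4 of 4 mice. Since Ccr1 itself was higher in mtD2+ in 4 of 4 mice, these ratios are no separate support for the calls of Ccr2 and Cx3cr1.

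Ccrl2 belongs to the atypical receptors, which resemble chemokine receptors but do not signal through G proteins, and it holds chemerin on the cell surface for presentation to other cells. The gene (ENSMUSG00000043953) lies on the minus strand of chromosome 9 from 111054835 to 111057270. Its level was 967.4, 748.1, 680.2 and 1029 CPM in the mtD2+ libraries of mice 1 to 4, against 549, 276.2, 258.9 and 771.8 CPM in the mtD2- libraries. Each mtD2+ library exceeded the mtD2- library of its own mouse, but the groups overlapped, because the mtD2- library of mouse 4 lay above the mtD2+ libraries of mice 2 and 3. The means were 856.1 ± 168.1 CPM in mtD2+ and 464.0 ± 244.5 CPM in mtD2- (SD, n = 4 each), and the fitted difference over pairs was 2.02-fold higher in mtD2+ (log2 1.02, SE 0.17, edgeR adjusted p = 0.0142). Within mice the log2 ratio was 0.82, 1.44, 1.39 and 0.41. The call rested on the pairing by mouse and on most of the mice. The adjusted p was 0.179 without the mouse as a block (log2 0.88), 0.0580 without mouse 1 (1.09), 0.0664 without mouse 2 (0.88) and 0.0911 without mouse 3 (0.90), and 0.00532 without mouse 4 (1.22). The ratio of Ccrl2 to Ccr2 in RPKM was 6.70 to 8.68 in mtD2+ and 1.51 to 4.47 in mtD2-, without overlap. This ratio sets a gene called higher over one called lower and is no separate support for either call. The ratio of Ccrl2 to C5ar1, which was not called, was 0.334 to 0.493 in mtD2+ and 0.154 to 0.304 in mtD2-.

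Cxcr4, the receptor for Cxcl12, which holds leukocytes in bone marrow, lies on chromosome 1 (128588199 to 128592293, minus strand). It had 198.1, 146.4, 135.8 and 234.6 CPM in the mtD2+ libraries of mice 1 to 4, against 116.7, 107, 78.0 and 278.2 CPM in the mtD2- libraries. It was higher in mtD2+ in mice 1, 2 and 3 and lower in mouse 4, whose mtD2- library was the highest of all 8. The log2 fold change was 0.44 (SE 0.17, edgeR adjusted p = 0.173) and did not pass the test. It passed without mouse 4 (0.67, edgeR adjusted p = 0.0249) and by the Wald test of DESeq2 on all mice (0.46, adjusted p = 0.0480).

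**Figure D3:**
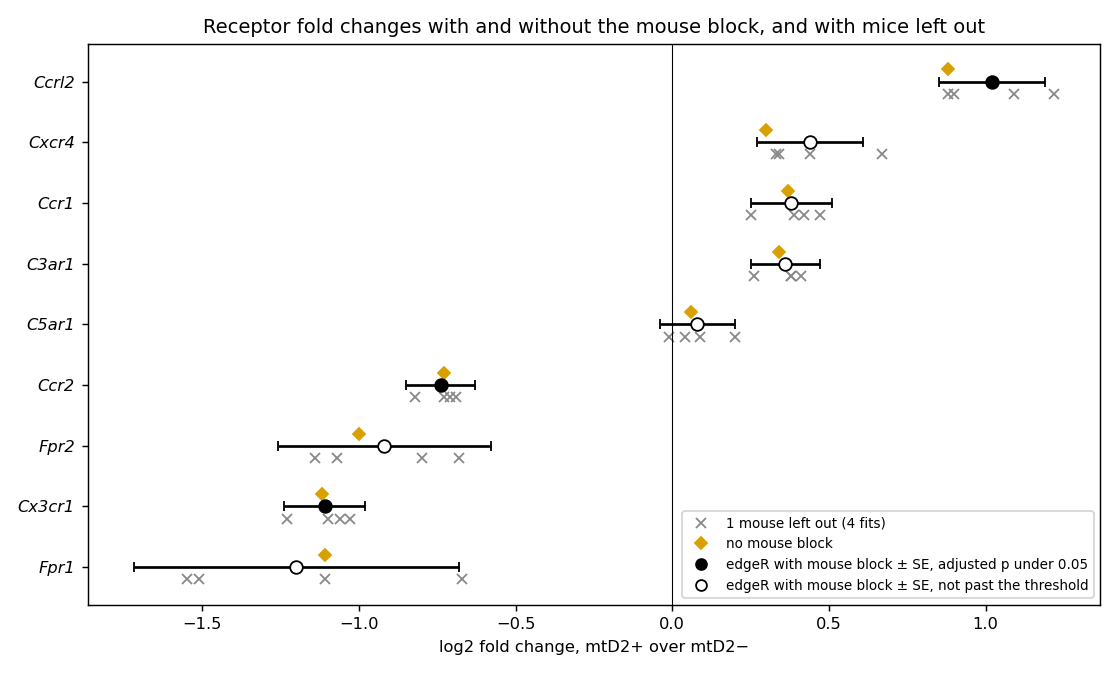
Log2 fold change, mtD2+ over mtD2- (horizontal axis), of each receptor with the mouse as a block (circles with SE bars, filled where the adjusted p was under 0.05), without the block (diamonds) and with each mouse left out (crosses). The crosses of Cx3cr1 and Ccr2 stay within -1.23 to -0.69, those of Ccrl2 within 0.88 to 1.22, and those of C5ar1 fall on both sides of 0.

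The complement peptide receptors were abundant in both populations, and neither passed the test. C5ar1, the receptor for C5a (chromosome 7, 16246743 to 16259540, minus strand), had 2421, 2731, 2389 and 2542 CPM in the mtD2+ libraries of mice 1 to 4, against 2354, 2162, 2044 and 3097 CPM in the mtD2- libraries. The mtD2- libraries spread on both sides of the mtD2+ range, with mouse 4 the highest of all. Its log2 fold change was 0.08 (SE 0.12, edgeR adjusted p = 0.749), and it was -0.01 without mouse 2. C3ar1, the receptor for C3a (chromosome 6, 122847138 to 122856161, minus strand), had 1293, 1264, 1086 and 1372 CPM in mtD2+, against 1068, 808.9, 878.2 and 1196 CPM in mtD2-. The mtD2+ library was the higher one in 4 of 4 mice, although the groups overlapped. The log2 fold change of C3ar1 was 0.36 (SE 0.11, edgeR adjusted p = 0.101).

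For Ccr1 and C3ar1, as for Cxcr4, the choice of test decided the call. DESeq2 called Ccr1 (log2 0.39, adjusted p = 0.0242) and C3ar1 (0.37, adjusted p = 0.0128) higher in mtD2+. With DESeq2, 4 of the 9 receptors were called higher and 2 lower, where that test called 8.15% of all tested genes higher and 4.89% lower. With edgeR and no mouse block, 0 of the 9 were called higher and 2 lower, against 1.06% and 0.51% of all tested genes. Cx3cr1 and Ccr2 were the pair called lower in both of these settings.

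The formyl peptide receptors had the fewest counts of the 9. Fpr1 (chromosome 17, 17876471 to 17883940, minus strand) had 101, 84, 28 and 22 counts in the mtD2+ libraries of mice 1 to 4, which was 4.60, 3.12, 1.24 and 1.25 CPM, against 145, 108, 215 and 74 counts, or 5.58, 4.08, 9.04 and 3.40 CPM, in the mtD2- libraries. All 4 mice were lower in mtD2+, and the groups overlapped, since the mtD2+ library of mouse 1 lay above the mtD2- libraries of mice 2 and 4. Its log2 fold change was -1.20 (SE 0.52, edgeR adjusted p = 0.210), with log2 ratios of -0.28, -0.39, -2.87 and -1.45 in mice 1 to 4. Fpr2, which lies 3.88 kb away on the plus strand (17887824 to 17893952), had 93, 121, 100 and 62 counts in mtD2+, or 4.24, 4.49, 4.43 and 3.51 CPM, against 134, 167, 252 and 244 counts, or 5.16, 6.31, 10.6 and 11.2 CPM, in mtD2-. The Fpr2 groups did not overlap, and the log2 fold change was -0.92 (SE 0.34, edgeR adjusted p = 0.149). Leaving out mice gave -1.55 to -0.67 for Fpr1, with -0.67 when mouse 3 was left out, so that the size of the Fpr1 difference rested in part on that mouse. For Fpr2 it gave -1.14 to -0.68, and its log2 ratios were -0.28, -0.49, -1.26 and -1.68 in mice 1 to 4. Of the 50-base words of Fpr2's exons, 31.5% also occur in Fpr1, Fpr3 or the predicted gene Gm5966, and 48 bases of its exons are shared with Fpr3, so that its count is uncertain. Fpr3 had a count of 0 in all 8 libraries, which allows at most 0.109 to 0.163 CPM (3 counts, counting error only). Of the other receptors, Cx3cr1 shares 1.06%, Ccr2 1.91% and Fpr1 0.08% of such words with other genes, and the remaining 5 share none.

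Neutrophils, which carry Fpr1 and Fpr2 at high levels, had few markers in these libraries. Of 13 neutrophil genes, Ly6g and Stfa2l1 were at 0 in every library, 3 were tested and none of those passed, and the summed level was 200.4 to 276 CPM in mtD2+ and 223.3 to 258.2 CPM in mtD2-. Most of that sum came from Mmp9, at 119.1 to 189 CPM in mtD2+ and 159.3 to 193 CPM in mtD2-, and Csf3r, at 70.4 to 81.3 CPM in mtD2+ and 56.9 to 78.7 CPM in mtD2-. The granule gene Ngp, named after its values were seen, stood at 18.8 CPM in the mtD2+ library of mouse 4 and at no more than 0.265 CPM in each of the other 7, while Fpr1 in that library was at 1.25 CPM. S100a8 (10.5 CPM), S100a9 (7.02 CPM), Ltf (3.90 CPM) and Camp (3.79 CPM) were also highest in that library. Elsewhere they were at most 2.82, 0.841, 0.274 and 0.223 CPM. Mmp9, Mmp8 and Il1r2 were not highest there. These 7 genes were also named after their values were seen. Of 10 monocyte markers, 1 (Spn, log2 -0.90, SE 0.22, edgeR adjusted p = 0.0497) was lower in mtD2+ and 9 did not pass. The log2 fold change was positive for 2 of the 10, with a median of -0.74. Several of them stood at a few CPM, such as Vcan at a mean of 1.97 CPM in mtD2+ and 4.20 CPM in mtD2-. The monocyte sum was 65.3 to 129.4 CPM in mtD2+ and 65.4 to 181.2 CPM in mtD2-. Ly6c2, the defining gene of classical monocytes, was at most 2.05 CPM in mtD2+ and at most 10.2 CPM in mtD2-, beside a Ccr2 level of 261 CPM or more in every library. Fibroblast and adipocyte precursor genes moved with the groups. Of 12, 7 were lower in mtD2+ and none higher, and their sum was 615.3 to 923.1 CPM in mtD2+ and 1811 to 4623 CPM in mtD2-. Of dendritic cell markers, 1 (Batf3) of 8 tested was lower in mtD2+, with sums of 278 to 318.8 CPM in mtD2+ and 221.5 to 316.2 CPM in mtD2-. Of T, NK and B cell markers, 1 (Cd79b) of 6 tested was lower, with sums of 20.6 to 36.7 CPM in mtD2+ and 37.9 to 62.2 CPM in mtD2-. The single calls of Spn, Batf3 and Cd79b were each lost without mouse 1, 2 or 3, and those of Spn and Batf3 also without mouse 4. Without the block the calls of Spn and Cd79b were lost, and that of Spn also with median-of-ratios size factors. With edgeR 0 endothelial, adipocyte, mast cell or eosinophil markers were called in either direction, with 1 endothelial and 2 adipocyte markers at an unadjusted p under 0.05, while DESeq2 called the adipocyte genes Fabp4 and Cidec and the endothelial gene Pecam1 higher in mtD2+. The adipocyte sum was 159.1 to 320.5 CPM in mtD2+ and 172.5 to 211.8 CPM in mtD2-. Of 7 adipocyte markers tested, 6 had a positive log2 fold change, with a median of 0.52. The part of these cells in the receptor differences was not tested.

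Ccrl2, C3ar1, Cxcr4 and C5ar1 varied together over the 8 libraries. On log2 values, Pearson's r was 0.97 between Ccrl2 and C3ar1, 0.85 between Ccrl2 and Cxcr4, 0.84 between Cxcr4 and C5ar1, 0.81 between Cxcr4 and C3ar1, 0.72 between Ccrl2 and C5ar1 and 0.71 between C5ar1 and C3ar1. Cx3cr1 and Ccr2 had r = 0.82, and Cx3cr1 had r = -0.87 with Ccrl2. Ccr1 stood outside both sets, with r of -0.58 to 0.14 to each other receptor. These values describe 8 libraries that share 4 mice and 2 populations, and carry no test. Among tested genes with a mean of at least 5 CPM, the pattern nearest to Ccrl2 was that of the chemokine gene Cxcl2 (r = 0.994), followed by Tbc1d15 (0.989). Tbc1d15 (0.977) and Tgoln1 (0.973) were nearest to C3ar1, Sqstm1 (0.991) and the heat shock gene Hspa1a (0.990) to Cxcr4, and Rnf185 (0.954) and the glutamine synthetase gene Glul (0.950) to C5ar1. Nearest to Cx3cr1 were Fam69a (0.986) and Uggt1 (0.982), to Ccr2 Rtn1 (0.978) and Mrpl21 (0.964), and to Ccr1 Slc7a8 (0.962) and Zfp398 (0.961). Usp46 (0.971) and Dnajc9 (0.950) were nearest to Fpr1, and Nabp2 (0.978) and Dnajb14 (0.976) to Fpr2.

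Of 24 immediate early and heat shock genes, which respond when tissue is taken apart, 9 were higher in mtD2+, 0 lower and 15 not called, with a median log2 fold change of 0.45. Their summed level was 31320, 27743, 27607 and 32533 CPM in the mtD2+ libraries of mice 1 to 4, against 20641, 14982, 17305 and 30464 CPM in the mtD2- libraries. The mtD2- library of mouse 4 stood within the mtD2+ range of this sum. In that same library Ccrl2, Cxcr4, C5ar1 and C3ar1 had their highest mtD2- values and Cx3cr1 its lowest, whereas Ccr2 at 522.9 CPM was in the middle of the mtD2- range. Of the 24, 15 were called higher without mouse 4, 5 without mouse 2, and 2 without mouse 1, without mouse 3 or without the block. DESeq2 called 14 higher, limma voom and the stricter filter 12 each, no filter 11, library totals 10 and median-of-ratios size factors 9, each with 0 lower. Without mouse 4 the log2 fold changes of Ccrl2 and Cxcr4 were 1.22 and 0.67. Between the libraries of mouse 4, whose sums were 32533 CPM in mtD2+ and 30464 CPM in mtD2-, the log2 ratio was -0.74 for Cx3cr1, -0.50 for Ccr2, 0.41 for Ccrl2 and -0.25 for Cxcr4. The part of these genes in the receptor differences was not tested.

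**Figure D4:**
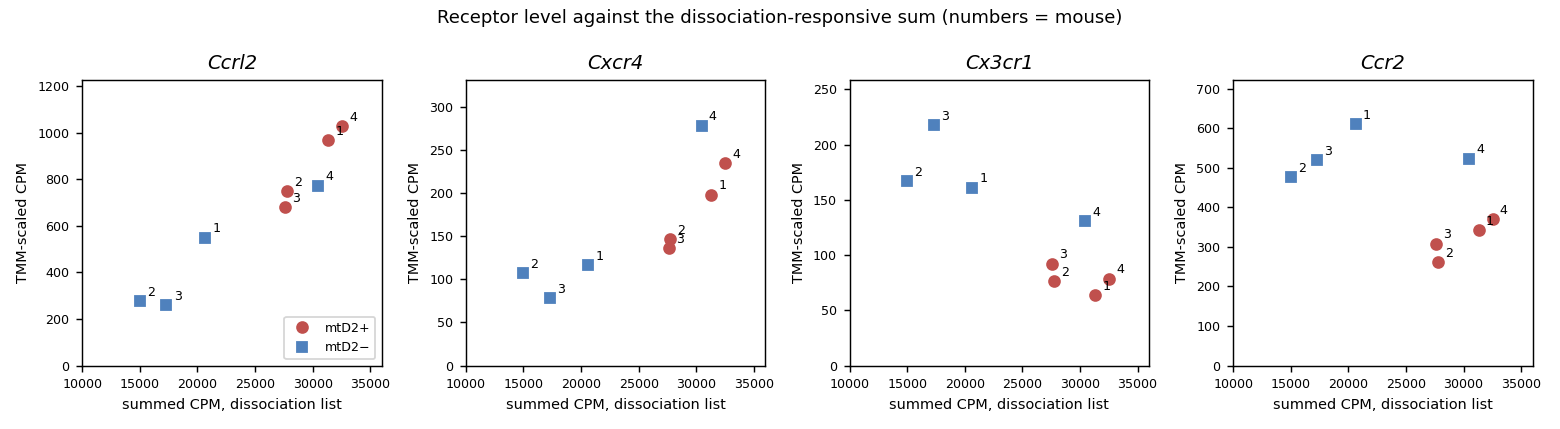
TMM-scaled CPM of Ccrl2, Cxcr4, Cx3cr1 and Ccr2 (vertical axes from 0) against the summed CPM of 24 dissociation-responsive genes (horizontal axes) in the 8 libraries, circles for mtD2+ and squares for mtD2-, numbered by mouse. Ccrl2 and Cxcr4 are higher where the sum is high, with the mtD2- library of mouse 4 beside the mtD2+ ones, while for Cx3cr1 and Ccr2 that library at 30464 CPM stays above every mtD2+ library.

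The sequences upstream of Ccrl2, Cxcr4 and C3ar1 are shown because their levels varied together. C5ar1 varied with them, but 202 of the 250 bases of its window were left off because of its annotated exon, so it is not shown. The sequences shown are the bases before the transcription start on the gene's strand, 5′ to 3′, from RefSeq on GRCm38.p6, in which all 9 receptors had a window. Windows that lie in an annotated exon of the gene were left out, and bases within the first exon were left off. Capitals mark matches on either strand to any of 8 motifs. For PU.1 the core GGAAGT was searched, and for AP-1 the site TGANTCA. The hypoxia response core was searched as ACGTG, the SP1 box as GGGCGG and the TATA box as TATAAA. The NF-kB site was searched as GGGANTTTC, the interferon-stimulated element as GAAANNGAA and the C/EBP site as TTGCNNAA.
Ccrl2, chr9:111057520-111057768, minus strand: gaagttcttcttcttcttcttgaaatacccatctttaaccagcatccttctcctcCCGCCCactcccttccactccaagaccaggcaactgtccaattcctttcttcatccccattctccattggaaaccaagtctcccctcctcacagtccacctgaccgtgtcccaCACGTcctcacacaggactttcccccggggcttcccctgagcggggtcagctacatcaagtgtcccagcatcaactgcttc
Cxcr4, chr1:128592300-128592549, minus strand: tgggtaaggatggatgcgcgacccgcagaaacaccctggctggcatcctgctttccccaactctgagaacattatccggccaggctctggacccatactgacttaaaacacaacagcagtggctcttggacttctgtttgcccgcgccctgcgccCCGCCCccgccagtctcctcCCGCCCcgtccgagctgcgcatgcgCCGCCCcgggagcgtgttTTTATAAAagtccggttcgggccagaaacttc
C3ar1, chr6:122856162-122856407, minus strand: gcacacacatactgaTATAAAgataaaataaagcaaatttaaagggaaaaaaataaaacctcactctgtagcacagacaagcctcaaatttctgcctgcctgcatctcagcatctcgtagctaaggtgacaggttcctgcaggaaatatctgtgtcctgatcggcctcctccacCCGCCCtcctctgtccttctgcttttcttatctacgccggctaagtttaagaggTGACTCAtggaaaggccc
In the Ccrl2 window the capitals are an SP1 match and a hypoxia core match, both on the opposite strand. In the Cxcr4 window they are 3 SP1 matches on the opposite strand and a TATA match 30 bases before the start, which overlaps its own reverse complement. In the C3ar1 window they are an AP-1 match 22 bases before the start, an SP1 match and a TATA match 235 bases before the start. Of 32851 windows of 250 bases, 32.7% hold the SP1 letters, 16.6% the hypoxia core, 12.4% the TATA letters, 6.75% the AP-1 letters and 0.941% the NF-kB letters, and PU.1, interferon and C/EBP letters occur in 19.7%, 7.13% and 9.56%. Within 250 bases before the listed starts of the receptors, SP1 letters were found for 3 of the 9, TATA letters for 4, and NF-kB and C/EBP letters for 0. Those 3 with SP1 letters were the ones shown. The C5ar1 window, which is not shown, held PU.1 matches and an interferon-element match but no SP1 match. A match is a description of letters and not of binding.

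Genes listed as ligands of these receptors were measured in the same libraries. Of the 19 listed, 18 were tested, 3 were higher and 3 lower in mtD2+, and the median log2 fold change was 0.02 over the 18. The 3 lower include Cirbp, which encodes an RNA-binding protein and is not counted here as a ligand of any 1 receptor. The 3 higher include Ccl8, listed through the human receptor. In mtD2+ macrophages, where Ccr2 was lower, its ligands Ccl2 and Ccl7 were higher. Ccl2, which draws monocytes through Ccr2, stood at 4638, 3584, 3571 and 3834 CPM in the mtD2+ libraries of mice 1 to 4, against 2241, 1286, 1382 and 2477 CPM in the mtD2- libraries. The groups did not overlap (log2 1.13, SE 0.15, edgeR adjusted p = 0.00495), and the call was kept in 11 of 11 alternatives. Ccl8, whose human counterpart binds CCR2, was also higher in mtD2+ (log2 0.65, SE 0.11, edgeR adjusted p = 0.0141), a call lost without the block (0.0591) or without mouse 1, 2 or 3. Ccl7, named after its values were seen, was higher too (0.62, SE 0.13, edgeR adjusted p = 0.0330), with the same settings losing the call. Ccl12, another mouse ligand of Ccr2, had -0.17 (SE 0.10, edgeR adjusted p = 0.369). Without the block, or without mouse 1, 2 or 3, only 1 ligand gene, Ccl2, was called higher, while DESeq2 called 5.

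For the complement receptors, C3, the source of C3a, stood at 49.1, 40.6, 73.8 and 57.7 CPM in the mtD2+ libraries of mice 1 to 4, against 156.1, 142, 220.7 and 331.8 CPM in the mtD2- libraries. The groups did not overlap (log2 -1.89, SE 0.16, edgeR adjusted p = 0.00137), and the call was kept in 11 of 11 alternatives. C3 is also made by fibroblasts, whose genes were lower in mtD2+ as given above. The part of fibroblasts in the C3 difference, and in those of Cxcl12 and Rarres2 below, was not tested. Hc, which encodes C5, was at most 1.60 CPM in mtD2+ and at most 0.718 CPM in mtD2-. Cxcl12, the ligand of Cxcr4 and named after its values were seen, was lower in mtD2+ (log2 -0.62, SE 0.15, edgeR adjusted p = 0.0469), a call lost without the block, with median-of-ratios size factors or without mouse 2, 3 or 4. Cirbp, an RNA-binding protein gene that the list also held, was lower (-0.90, SE 0.13, edgeR adjusted p = 0.00817, but 0.0512 without mouse 3). Of the Ccr1 ligands, Ccl3 had 0.82 (SE 0.20, edgeR adjusted p = 0.0520), Ccl5 0.43, Ccl6 -0.15 and Ccl9 -0.06, and none of these passed. Ccl3, named after its values were seen, passed in 7 of 11 alternatives, DESeq2 and limma voom among them. Rarres2, which encodes chemerin, averaged 3.47 ± 1.20 CPM in mtD2+ and 7.27 ± 3.14 CPM in mtD2- (SD, n = 4 each; log2 -1.05, SE 0.40, edgeR adjusted p = 0.163). Cx3cl1, which encodes fractalkine, was at most 2.09 CPM in mtD2+ and at most 4.08 CPM in mtD2-. The Fpr2 ligands Anxa1 (0.12, SE 0.10) and Saa3 (-0.71, SE 0.31) had edgeR adjusted p of 0.521 and 0.214.

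**Figure D5:**
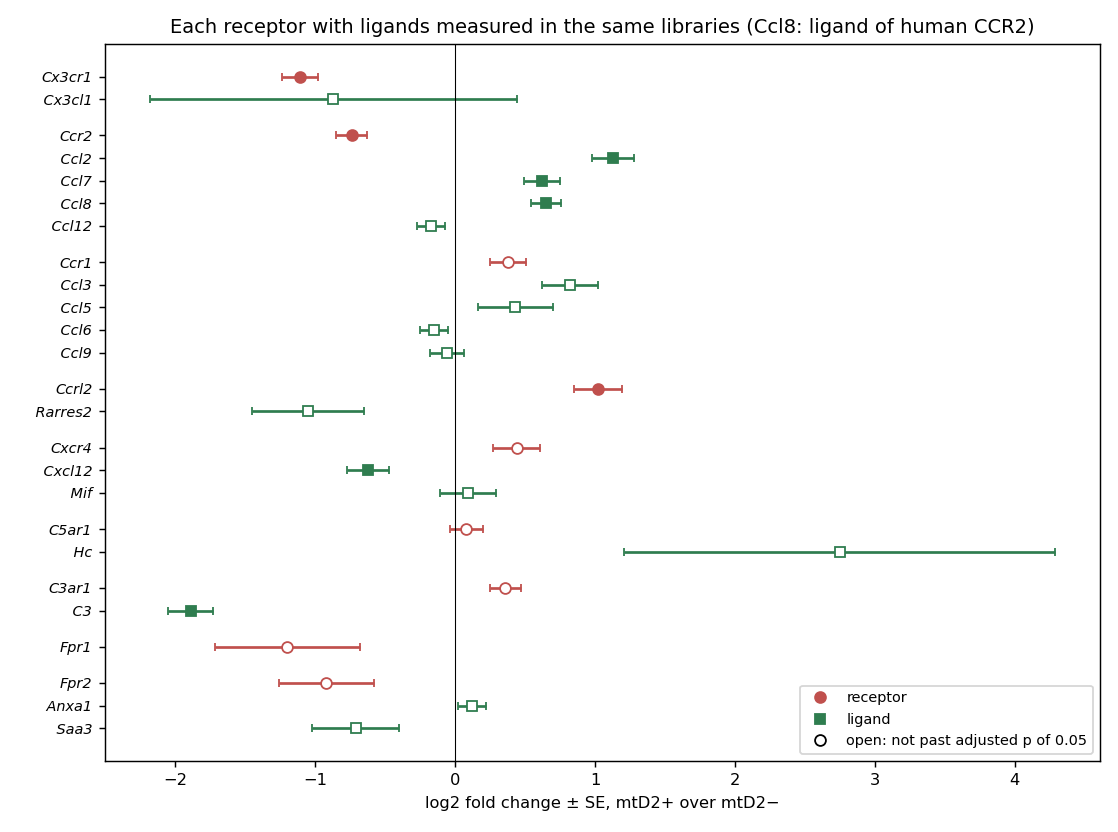
Log2 fold change with SE, mtD2+ over mtD2- (horizontal axis), of each receptor (circles) above the genes of its ligands (squares; Ccl8 from the human receptor), filled where the adjusted p was under 0.05. Ccr2 at -0.74 stands left of 0, as does its ligand Ccl12 at -0.17, while Ccl2, Ccl7 and Ccl8 stand right of it. Cxcr4 and C3ar1, both open, stand right of 0, as does the Cxcr4 ligand Mif at 0.09, while Cxcl12 and C3 stand left. Among the ligands of the other receptors, some stand on the receptor's side of 0 and some opposite.

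Of 34 genes that relay or end receptor signals, all tested, 1 was higher and 1 lower in mtD2+ (3 and 2 by DESeq2), with a median log2 fold change of -0.16. Rgs1, which speeds the shut-off of inhibitory G proteins behind chemokine receptors, averaged 397.6 ± 84.9 CPM in mtD2+ and 194.9 ± 62.8 CPM in mtD2- (SD, n = 4 each; log2 1.06, SE 0.12, edgeR adjusted p = 0.00323). Its lowest mtD2+ value was 324.7 CPM and its highest mtD2- value 275.7 CPM, and the call was kept in 11 of 11 alternatives. Rgs19, of the same family, averaged 64.4 ± 7.88 CPM in mtD2+ and 104.3 ± 4.19 CPM in mtD2- (SD, n = 4 each; log2 -0.70, SE 0.11, edgeR adjusted p = 0.0111), a call lost without mouse 1 or 3. The receptor kinase gene Grk4 had 1.41 (SE 0.44, edgeR adjusted p = 0.103) at a mean of 6.32 CPM in mtD2+ and 2.74 CPM in mtD2-. Ric8a, which encodes a chaperone of G protein subunits, had -0.55 (SE 0.18, edgeR adjusted p = 0.110). The inhibitory subunit gene Gnai2 averaged 541.1 CPM in mtD2+ and 587.6 CPM in mtD2- and did not pass (log2 -0.11, SE 0.10), nor did the arrestin genes Arrb1 (-0.17, SE 0.11) and Arrb2 (-0.04, SE 0.11). These last 3 were named after their values were seen.

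Of 31 other chemokine and chemoattractant receptor genes, 14 passed the filter and 0 of them was called in either direction by edgeR, with 0 at an unadjusted p under 0.05 and 0 called by DESeq2 or limma voom. Their median log2 fold change was 0.37. That median includes genes at low levels, such as Cxcr5 and Ccr9 at means of 3.33 and 0.897 CPM in mtD2+ and 1.56 and 0.448 CPM in mtD2-. Leaving out mouse 4 gave 1 call, Ptafr, the receptor for platelet-activating factor (0.45, edgeR adjusted p = 0.0477). On all mice Ptafr averaged 1612 ± 235.3 CPM in mtD2+ and 1384 ± 276.5 CPM in mtD2- (SD, n = 4 each; log2 0.23, SE 0.17, edgeR adjusted p = 0.450). Cxcr3 had a log2 fold change of 0.45 (SE 0.24, edgeR adjusted p = 0.308), and Cxcr5 (1.04, SE 0.56) and Ccr9 (1.98, SE 1.10) had adjusted p of 0.310 and 0.334. C5ar2, the other receptor for C5a and named after its values were seen, averaged 75.9 ± 15.7 CPM in mtD2+ and 80.5 ± 10.01 CPM in mtD2- (SD, n = 4 each). Of the 31, 6 (Cxcr1, Fpr3, Fpr-rs3, Fpr-rs4, Fpr-rs6 and Fpr-rs7) had a count of 0 in every library.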

How the data were processed

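RNA of 8 libraries, mtD2+ and mtD2- macrophages of 4 mice, was sequenced. Per the submitters' processing notes, the authors used STAR 2.0.4b, bcl2fastq and, from Subread, featureCounts 1.45 with GRCm38, and the sources used here give neither their roles nor the strandedness of counting. Per the file headers and values, the authors deposited whole-number counts per Ensembl gene, CPM (the count scaled to the library's total) and RPKM (that CPM per kilobase of the deposited gene length). Symbols for 40254 of 41388 genes came from GENCODE M21.

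Counts were tested in R 4.3.3 with edgeR 4.0.16: TMM factors, an expression filter (minimum count 10, minimum total 15, proportion 0.7), and a quasi-likelihood F test on a model of mouse and group. P-values were adjusted by the Benjamini-Hochberg method over 13933 genes. The SE is the fold change over the square root of F. Printed CPM is scaled to the tested genes' total times the TMM factor, and RPKM is as deposited. The labels name the mouse of each library, and the deviations of same-mouse libraries from their group means correlated at 0.079, 0.101, 0.209 and 0.316 for mice 1 to 4. P-values rest on 4 mice. Each library's depth of 18462287 to 27464399 counts limits genes at a few CPM.

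Alternatives were no block, 2 scalings (library totals and median-of-ratios), 2 filters, DESeq2 1.42.0, limma 3.58.1 voom and leaving out each mouse. The 9 receptors and the gene lists were chosen with earlier results of these data known. The text names all 9 receptors, the sort markers, up to 4 tested genes per pathway list with the smallest unadjusted p, and the 2 genes most like each receptor by Pearson's r on log2(CPM + 0.5). A listed gene is not reported here. Other genes are said to be named after their values were seen, or are named only as markers or as ligands of a receptor.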

Additional observations from a re-analysis of the deposited data

Results flagged for a closer look

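In 74 groups of 4 libraries, 4 had a value set apart from the other 3 by Dixon's test for groups of 4, where chance sets apart about 1 in 20 groups, and none of the 4 was a value of the 9 receptors. The chemokine receptor gene Cxcr3 stood at 35.8 CPM in the mtD2+ library of mouse 2, against 19.4 to 20.7 CPM in the other 3 mtD2+ libraries. Ccr9, a chemokine receptor gene at the edge of detection, stood at 1.56 CPM in the mtD2- library of mouse 4, against 0 to 0.151 CPM in the other 3. The summed level of 8 mast cell and eosinophil genes was 3.79 CPM in the mtD2- library of mouse 3, against 0 to 0.577 CPM in the other 3. The summed level of the 12 fibroblast and adipocyte precursor genes was 4623 CPM in the mtD2- library of mouse 4, against 1811 to 1979 CPM in the other 3. Gsn made up 3269 CPM of it there, against 966.8 to 1094 CPM in the other 3. Dcn at 693.9 CPM, against 299 to 394.2 CPM in the other 3, was also highest there. So were Col3a1 (206.7 CPM), Lum (84.6 CPM), Pi16 (19.9 CPM), Pdgfra (18.3 CPM) and Pdgfrb (17.8 CPM) among the mtD2- libraries. Col1a1 at 102 CPM and Col1a2 at 143.1 CPM lay within the range of the other 3, as did Dpt, Cd34 and Dpp4. Without mouse 4 the log2 fold changes of Cx3cr1 and Ccr2 were -1.23 and -0.82.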

How the results depend on the processing

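Of 99 values (9 receptors under 11 alternatives each), 88 kept their direction and their side of the threshold, 6 lost the call, 4 gained it and 1 changed sign, which was C5ar1, at -0.01 without mouse 2 in a range of -0.01 to 0.20 with a mouse left out. Of 195 values of the other named genes, 159 were kept, 20 lost the call, 14 gained it and 2 changed sign: Ptprc was -0.04 with library totals and -0.06 without mouse 4 (-0.06 to 0.06 with a mouse left out). The count of all genes called was 767 in the paired fit, 218 without the replicate block, 1816 with DESeq2 and 166 to 555 with a mouse left out. The receptors called higher numbered 1 in the paired fit, 0 without the replicate block, 4 with DESeq2 and 0 to 2 with a mouse left out, and those called lower 2, and 1 to 2 with a mouse left out. Apart from Ccrl2, the block changed the call of no receptor. Of all calls, 67.7% were higher in mtD2+ (519 against 248 lower), against 53.8% with library totals (407 against 349), 78.6% without mouse 1 and 77.8% without mouse 4. The cause of these changes was not tested. Fits with a mouse left out use 3 pairs and so fewer degrees of freedom. At 22 to 252 counts, Fpr1 and Fpr2 are limited by depth and by the spread between mice.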

Other observations

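The atypical receptor gene Ackr1, an endothelial and red cell receptor that was not tested because it failed the filter, stood at 24.4 CPM in the mtD2+ library of mouse 2 and at no more than 0.154 CPM in each of the other 7 libraries. The summed level of 8 endothelial genes in that library was 37.1 CPM, against 11.5 to 27.7 CPM in the other mtD2+ libraries and 17.3 to 25.1 CPM in the mtD2- libraries. Ccr7, which dendritic cells carry to the lymph node, stood at 24.0, 11.0, 2.97 and 17.8 CPM in the mtD2+ libraries of mice 1 to 4, against 19.4, 10.2, 3.36 and 61.4 CPM in the mtD2- libraries. Both genes were named after their values were seen.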
